A study of Mus musculus with 8 samples.

Results

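The genes described here, 8 in number, serve sugar and ammonia metabolism in the kidney and were followed in mice with Xpr1 deleted from the nephron: G6pc, Slc37a4, Fbp1, Pck1, Pck2, Pcx, Khk and Glud1. They encode the enzymes that release glucose from pyruvate, amino acids and fructose, the carrier that brings glucose 6-phosphate to the last of these enzymes, and the enzyme that frees ammonium from glutamate. The genes were taken by name, and all 8 were found among the 46517 Ensembl genes of the count files. Whole kidneys of 8 mice had been profiled by stranded mRNA sequencing, with 1 library per mouse. The 4 cKO mice (KO16, KO18, KO19 and KO20) carried floxed Xpr1 alleles (Xpr1lox/lox) with Pax8-rtTA, by which the Pax8 promoter drives an activator that needs doxycycline in tubule cells, and LC1, which supplies Cre recombinase under that activator. The 4 Control mice (C10, C11, C13 and C14) were Xpr1lox/lox littermates without these transgenes. Mice of both genotypes drank doxycycline at 2 mg/ml for 2 weeks from the age of 8 weeks. The presence of rtTA and Cre and the loss of Xpr1 therefore cannot be told apart in this design.

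The kidney cortex is, beside the liver, the organ that releases new glucose into the blood, and within the kidney this work is done by the proximal tubule. Pyruvate carboxylase and a phosphoenolpyruvate carboxykinase turn pyruvate into phosphoenolpyruvate, fructose-1,6-bisphosphatase carries the path past the one-way step of glycolysis, and glucose-6-phosphatase in the endoplasmic reticulum frees glucose. The same cells take up fructose, which ketohexokinase traps as fructose 1-phosphate, and break down glutamine to ammonium, which leaves with the urine and helps to clear acid; the carbon left over from glutamine can feed phosphoenolpyruvate carboxykinase. Xpr1 encodes a retrovirus receptor and phosphate exporter, and the study asked what its loss from the nephron does to the kidney.

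Promoter sequences of G6pc, Pck1 and Pck2 are shown because the first pair gave the largest falls and Pck2, the mitochondrial partner of Pck1, lay in the other direction. They are the 250 bases before the RefSeq start site in GRCm38.p6, all on the plus strand, written 5′ to 3′, and capitals mark matches to 4 of the motifs searched on both strands, with matches to other motifs left in lower case.
G6pc, chr11:101367466-101367715: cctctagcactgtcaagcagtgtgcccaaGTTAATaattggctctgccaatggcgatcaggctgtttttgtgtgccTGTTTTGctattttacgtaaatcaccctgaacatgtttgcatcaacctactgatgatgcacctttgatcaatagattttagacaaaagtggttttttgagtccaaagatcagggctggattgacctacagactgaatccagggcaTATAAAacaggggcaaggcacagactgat
Pck1, chr2:173152823-173153072: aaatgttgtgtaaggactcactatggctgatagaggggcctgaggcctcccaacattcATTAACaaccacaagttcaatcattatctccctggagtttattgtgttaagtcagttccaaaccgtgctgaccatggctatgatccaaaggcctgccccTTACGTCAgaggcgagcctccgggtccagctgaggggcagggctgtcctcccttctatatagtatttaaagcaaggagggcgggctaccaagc
Pck2, chr14:55540016-55540265: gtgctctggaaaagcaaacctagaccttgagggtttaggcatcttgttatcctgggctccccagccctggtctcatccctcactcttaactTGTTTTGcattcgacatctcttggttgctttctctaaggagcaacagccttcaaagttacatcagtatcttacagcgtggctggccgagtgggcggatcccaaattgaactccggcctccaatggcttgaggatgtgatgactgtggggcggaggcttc
The letters GTTAAT, a short form of the site of the factor HNF1, were found in the windows of G6pc, Pck1 (on the minus strand) and Khk, and in 7.1% of 32851 RefSeq windows of 300 bases (250 before and 50 after a start). TTACGTCA, the form of the cAMP response element known from Pck1, was found in Pck1 alone of the 8 genes and in 0.499% of all windows, and it includes the shorter CGTCA, which stood in the windows of Pck1, Slc37a4 and Khk and in 20.8% of all windows. TGTTTTG, a core of insulin response sequences, stood in the windows of G6pc and Pck2 and in 6.28% of all, and TATAAA in those of G6pc and Slc37a4 and in 13.6% of all. None of the windows of the 8 genes held TGACGTCA (1.79% of all), TGTTTAC (3.65%), CAAAGTCCA (0.475%) or AGAACA (19%), nor the longer DR1 element (0.0396%) or glucocorticoid response element (0.00913%). CACGTG was found in Khk and Pcx (7.15% of all), CCAAT in G6pc, Fbp1, Pcx and Pck2 (37.4%) and GGGCGG in all of the 8 genes but G6pc (35.7%). These matches describe the letters of a short window and nothing about which factor binds there.

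Reads assigned to genes ran from 20366113 to 26155030 per library, and the test covered 15382 genes. By the edgeR test described below, 6.61% of these genes were lower and 7.5% higher in cKO kidneys. Every cKO library lay below every Control library in 11.6% of them and above in 11.2%. The targeted gene itself, Xpr1, had 5.74 to 26.5 CPM (read counts relative to the library's size, scaled by TMM factors) in cKO kidneys and 80.2 to 126 CPM in Control kidneys, so each library followed its label; the counts are over the whole gene, of which exon 2 is floxed. Libraries leaned to short or long transcripts, with a change in log2 CPM per doubling of exonic length of -0.47 in KO16 and -0.20 in KO20, against 0.17 to 0.23 in KO18 and KO19, and of 0.28 in C11, -0.08 in C10 and 0.02 to 0.04 in the other Control libraries. Of 14 proximal tubule markers 10 fell and 4 did not pass, and their summed level was 3579 to 6621 CPM in cKO kidneys, against 13320 to 23750 CPM in Control kidneys. Within whole kidney, fewer proximal tubule cells and less RNA of these genes per cell cannot be told apart. Summed markers of the thick ascending limb (3397 to 5247 CPM in cKO and 3461 to 4166 CPM in Control kidneys) and of the distal convoluted tubule (686 to 787 and 672 to 1057 CPM) overlapped between the groups, as did those of podocytes (67.9 to 159 and 128 to 323 CPM) and red blood cells (81.1 to 607 and 149 to 244 CPM). Collecting duct markers did not overlap (368 to 648 CPM in cKO and 319 to 350.2 CPM in Control kidneys), with Aqp2 higher and Aqp3 lower among 6, and neither did endothelial ones (161 to 186 and 221 to 276 CPM), of which none of 4 passed. Of sources outside the kidney, all 4 adrenal cortex markers lay under 1 CPM in every library. The 6 hepatocyte markers summed to 33.2 to 132 CPM in cKO kidneys, highest in KO16, and 51.9 to 58.7 CPM in Control kidneys; Alb fell, Apoc3 rose, and Cps1 and Tat lay under 1 CPM in every library. Adipocyte markers, of interest because fat cells express Pck1, summed to 1.89 to 43.7 CPM in cKO kidneys and 1.13 to 8.38 CPM in Control kidneys, with none of the 3 tested past the threshold and Lep under 1 CPM in every library. All 5 markers of tubule injury rose, as did 3 of 6 immune cell markers (summed level 198 to 690 CPM in cKO and 91.8 to 103 CPM in Control kidneys) and 2 of 4 fibroblast markers (196 to 325 and 87.0 to 148 CPM). What the change in cell markers contributes to the results below was not tested.

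In cKO kidneys 6 of the 8 genes fell: G6pc, Pck1, Pcx, Slc37a4, Fbp1 and Glud1. Khk and Pck2 did not pass edgeR's test with Benjamini-Hochberg adjustment over all genes, at a threshold of 0.05. Among all genes tested 6.61% were lower and 7.5% higher, so 6 of 8 lower stands well above the background share, although the genes were chosen with such results known. Their median log2 fold change was -1.54, against 0.01 for all genes tested. The 14 proximal tubule markers, of which 10 fell, had a median of -1.68, so a fall of this size was not particular to the 8 genes. In 6 genes every cKO library lay below every Control library (11.6% of all genes tested) and in 1, Pck2, every cKO library lay above them (11.2%). The summed level of the 8 genes was 1376 ± 490 CPM in cKO kidneys and 4889 ± 730.1 CPM in Control ones (SD, n = 4 each). The number that fell was 4 to 7 when a single library was left out, 7 without KO16 and KO20, and 5 with library totals as the only scaling, which lifted the median of all genes by 0.34 and called 548 lower and 2374 higher genes (18.8% lower), against 1016 and 1154 (46.8% lower) with TMM scaling.

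**Figure D1:**
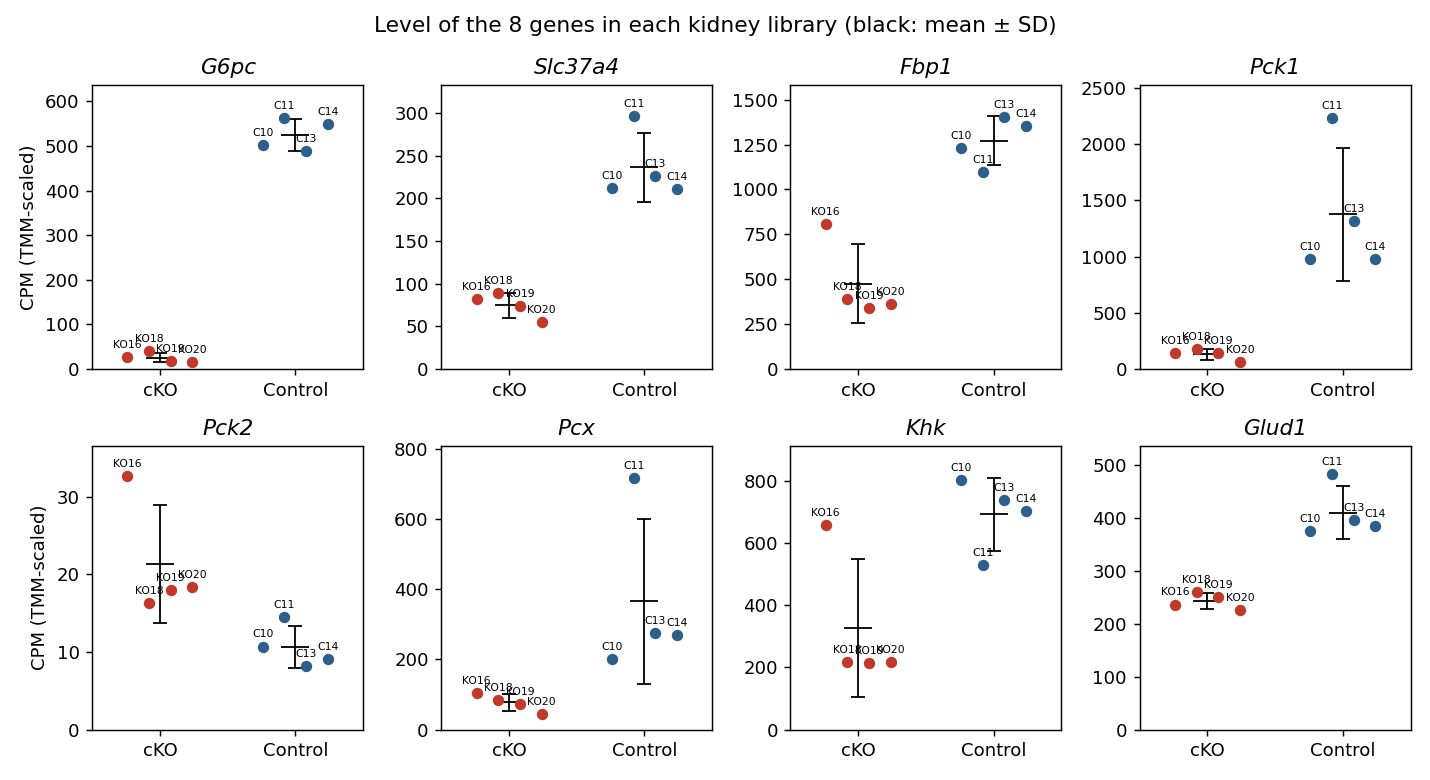
Level of each gene in TMM-scaled CPM (linear axis from 0) in the 4 cKO and 4 Control libraries; points are mice, black bars mean ± SD. G6pc lies at 16.2 to 40.2 CPM in cKO and 489 to 562 CPM in Control kidneys, KO16 stands apart for Fbp1, Khk and Pck2, and C11 for Pcx.

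The largest fall was in G6pc, the catalytic subunit of glucose-6-phosphatase, which releases free glucose. The gene (ENSMUSG00000078650) lies on the plus strand of chromosome 11 from 101367561 to 101377903 in GRCm38. It had 27.6, 40.2, 18.1 and 16.2 CPM in KO16, KO18, KO19 and KO20, against 502, 562, 489 and 548 CPM in C10, C11, C13 and C14. The Control libraries were close to each other and the cKO libraries far below them, with no overlap. The log2 fold change was -4.36 (SE 0.34, adjusted p = 0.000215), a level 20.6-fold lower. Of the genes that fell, 30, G6pc among them, had a fold change at least as large. The call held in each of 18 alternative fits (adjusted p up to 0.00215).

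Slc37a4, the carrier that brings glucose 6-phosphate into the endoplasmic reticulum for this enzyme, fell less. It lies on the plus strand of chromosome 9 (44396852 to 44402968). The cKO libraries KO16, KO18, KO19 and KO20 held 81.5, 88.4, 73.7 and 54.6 CPM, and the Control libraries C10, C11, C13 and C14 held 212, 296, 226 and 211 CPM. The groups did not overlap, KO20 being lowest and C11 highest. The log2 fold change was -1.67 (SE 0.23, adjusted p = 0.00202), and it passed in all 18 alternatives. For each read of Slc37a4 there were 0.246 to 0.454 reads of G6pc in cKO libraries and 1.9 to 2.6 in Control libraries. The enzyme thus fell more than its carrier within every library: the log2 ratio differed by -2.78 (two-sided exact permutation test over the 8 libraries, p = 0.0286, the smallest that 4 against 4 allows, 0.0327 adjusted over 8 ratios). This ratio and those below were chosen with earlier results of these data known, so their p-values give no independent support. G6pc3, the glucose-6-phosphatase expressed in most tissues, averaged 51.6 ± 26.9 CPM in cKO and 46.1 ± 1.88 CPM in Control kidneys (SD, n = 4 each) and did not pass (log2 fold change 0.16, 95% interval from the SE -0.47 to 0.80). Reads of G6pc for each read of G6pc3 numbered 0.305 to 1.18 in cKO and 10.5 to 12.5 in Control libraries. Among cKO libraries G6pc had more reads than G6pc3 in KO18 alone, and it had more in every Control library (difference in log2 ratio -4.49, exact permutation p = 0.0286, adjusted 0.0327).

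Fbp1 encodes fructose-1,6-bisphosphatase, which reverses the committed step of glycolysis. It lies on the minus strand of chromosome 13 (62864753 to 62888282) and has a short exonic length of 1.7 kb. Its level was 806, 391, 341 and 363 CPM in KO16, KO18, KO19 and KO20, against 1233, 1098, 1403 and 1352 CPM in C10, C11, C13 and C14. KO16, the library that leans most to short transcripts, stood above the other cKO libraries but below all Control libraries; the part of that lean in its value was not tested. The log2 fold change of Fbp1 was -1.42, with an SE of 0.31 and an adjusted p of 0.0169. Without KO16 the value was -1.80 (adjusted p = 0.000836), and the call was lost without C13 (0.0588), C14 (0.0537) or KO20 (0.105). Fbp2, its muscle-type relative, rose by 1.64 (SE 0.37, adjusted p = 0.0187), to 84.4, 27.4, 31.2 and 33.7 CPM in KO16, KO18, KO19 and KO20, against 16.3, 13.9, 13.8 and 12.6 CPM in C10, C11, C13 and C14. That call was lost without C13 (0.0668) or C14 (0.0659). Against Pfkl, the liver-type phosphofructokinase that runs the opposite reaction, the log2 ratio of Fbp1 was 3.34 ± 0.73 in cKO and 5.26 ± 0.71 in Control libraries (SD, n = 4 each), a difference of -1.93 by exact permutation test (p = 0.0286, adjusted 0.0327). Control library C11 (4.22) lay close to KO16 (4.12), and leaving out a single library gave an exact permutation p of 0.0286 or 0.0571 (the higher one without C10, C13, KO16, KO18, KO19 or KO20). C11, which leans most to long transcripts, had the lowest ratio of the Control libraries. KO16, which leans most to short ones, had the highest of the cKO libraries. The part of the length lean in this ratio was not tested.

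The phosphoenolpyruvate carboxykinase genes differed in direction. Pck1, the cytosolic enzyme and the rate-setting one of gluconeogenesis, lies on the plus strand of chromosome 2 (173153048 to 173159273). It had 142, 178, 145 and 60.5 CPM in KO16, KO18, KO19 and KO20, against 980.3, 2233, 1316 and 980.0 CPM in C10, C11, C13 and C14. KO20 was the lowest and C11 the highest library, and the groups were far from overlapping. The log2 fold change was -3.39 (SE 0.43, adjusted p = 0.00142), and it passed in all 18 alternatives. Pck2, the mitochondrial enzyme (plus strand of chromosome 14, 55540266 to 55551242), had 32.6, 16.3, 18.03 and 18.4 CPM in the cKO libraries KO16, KO18, KO19 and KO20, against 10.7, 14.5, 8.26 and 9.13 CPM in C10, C11, C13 and C14. Every cKO library lay above every Control library. The log2 fold change of 1.0 (SE 0.29, adjusted p = 0.052, unadjusted p = 0.00742) fell just short of the threshold with edgeR. It passed with DESeq2 (adjusted p = 0.0239) and without C11 (0.036), and it did not with limma-voom (0.054). Without KO16, the highest library, the value was 0.72 (adjusted p = 0.0623). An antisense gene, Gm10876, overlaps Pck2 by 2134 bases, 53 of them exonic; it was not analysed here, and without a stated strand setting reads of the pair cannot be told apart. For each read of Pck2 there were 3.29 to 10.9 reads of Pck1 in cKO libraries and 91.6 to 159 in Control libraries. The log2 ratio differed by -4.39 (exact permutation p = 0.0286, adjusted 0.0327), with more reads of Pck1 than of Pck2 in each library.

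Pcx, pyruvate carboxylase, makes the oxaloacetate that both carboxykinases use. It lies on the plus strand of chromosome 19 (4510472 to 4621752). Its level was 105, 85.7, 72.6 and 45.8 CPM in KO16, KO18, KO19 and KO20, against 202, 715, 275 and 270.1 CPM in C10, C11, C13 and C14. C11 stood far above the other Control libraries, and every cKO library lay below every Control library. The log2 fold change of Pcx was -2.24, with an SE of 0.44 and an adjusted p of 0.0106, and -1.69 without C11 (adjusted p = 0.0105); all 18 alternatives passed (adjusted p up to 0.0465, without KO20). Pck1 fell more than Pcx, with a difference in log2 ratio of -1.29 (exact permutation p = 0.0286, adjusted 0.0327), with 1.32 to 2.08 reads of Pck1 per read of Pcx in cKO libraries and 3.12 to 4.86 in Control libraries. A gene on the other strand, Lrfn4, lies within an intron of Pcx, shares no exonic base with it and had at most 128 reads in a library.

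Khk, ketohexokinase, starts the breakdown of fructose. The gene lies on the plus strand of chromosome 5 (30921431 to 30931248), with 1.8 kb of exon. It had 659, 217, 215 and 217 CPM in KO16, KO18, KO19 and KO20, against 803, 529, 737 and 704 CPM in C10, C11, C13 and C14. KO16 lay inside the Control range, whereas the other 3 cKO libraries were nearly equal and well below it. With all libraries the log2 fold change was -1.08 (SE 0.40, adjusted p = 0.117) and did not pass. Without KO16 it was -1.68 (SE 0.18, adjusted p = 0.00135), without KO16 and KO20 -1.69 (0.00408), and with the length lean of each library as a covariate -1.47 (0.00142). Khk passed in 4 of the 18 alternative fits, and in 1 of the 8 that left out a single library. Without KO20 the value was -0.80 (adjusted p = 0.388). Neither DESeq2 (adjusted p = 0.0917) nor limma-voom (0.0571) called Khk.

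Of 10 genes for the entry of fructose, glycerol and other sugars, 2 fell (against 6.61% of all genes tested) and 8 did not pass. Gk, glycerol kinase, which feeds glycerol into the path to glucose, fell to 205, 391, 298 and 326 CPM in KO16, KO18, KO19 and KO20, against 928, 845, 970.4 and 876 CPM in C10, C11, C13 and C14 (log2 fold change -1.57, SE 0.24, adjusted p = 0.0033). Slc2a2, the GLUT2 carrier by which glucose leaves the proximal tubule cell, fell by 1.44 (SE 0.37, adjusted p = 0.0297), to 62.4 ± 29.8 CPM in cKO against 169 ± 54.7 CPM in Control kidneys. The call of Slc2a2 was lost in 6 of 8 fits that left out a library, all but those without KO16 or KO18 (adjusted p 0.0514 to 0.0871). The apical fructose carrier gene Slc2a5 stood at -0.50 on the log2 scale (adjusted p = 0.405) and Tkfc, triokinase, which acts further on in fructose breakdown, at -0.55 (0.26).

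Glud1, glutamate dehydrogenase, releases ammonium and 2-oxoglutarate from glutamate in mitochondria. It lies on the plus strand of chromosome 14 (34310727 to 34345265). The cKO libraries KO16, KO18, KO19 and KO20 had 236, 259.6, 251 and 226 CPM, and the Control libraries C10, C11, C13 and C14 had 375, 484, 395 and 385 CPM. The cKO libraries were close to each other and all below the Control libraries. The fall of 0.75 on the log2 scale (SE 0.19, adjusted p = 0.0267) was the smallest of the 6 and the least stable call. It was lost without C10, C11, C13, C14, KO19 or KO20 (adjusted p 0.0543 to 0.109), with library totals alone (-0.42, adjusted p = 0.216), with upper-quartile scaling (0.055) and with no filter on low counts (0.0589), and it was kept without KO16 and KO20 (0.0308). Pck1, which draws on the carbon that Glud1 sets free, fell more than Glud1: their log2 ratio differed by -2.66 (exact permutation p = 0.0286, adjusted 0.0327), with fewer reads of Pck1 than of Glud1 in every cKO library (0.267 to 0.687 per read) and more in every Control library (2.54 to 4.62).

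Of 13 tested genes of glutamine use and ammonium handling, 3 fell, 1 rose and 9 did not pass. Over all genes tested 6.61% fell and 7.5% rose. Glul, glutamine synthetase, which consumes ammonium, fell by 0.98 (SE 0.23, adjusted p = 0.0202), a call lost without C13 (0.0743), C14 (0.0528), KO19 (0.0514) or KO20 (0.077). Slc25a10, the mitochondrial dicarboxylate carrier, fell to 110 ± 16.3 CPM in cKO against 354 ± 59.1 CPM in Control kidneys (log2 fold change -1.69, SE 0.21, adjusted p = 0.00146). Prodh, proline dehydrogenase, fell by 2.62 (SE 0.32, adjusted p = 0.00119), while Aldh18a1, which makes the precursor of proline from glutamate, rose by 1.45 (SE 0.27, adjusted p = 0.00833), to 6.27 ± 1.8 CPM in cKO against 2.29 ± 0.299 CPM in Control kidneys (SD, n = 4 each). Slc38a3, a glutamine carrier of the basolateral membrane, stood at 32.6 ± 12.7 CPM in cKO and 42.4 ± 12.8 CPM in Control kidneys (adjusted p = 0.556).

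**Figure D2:**
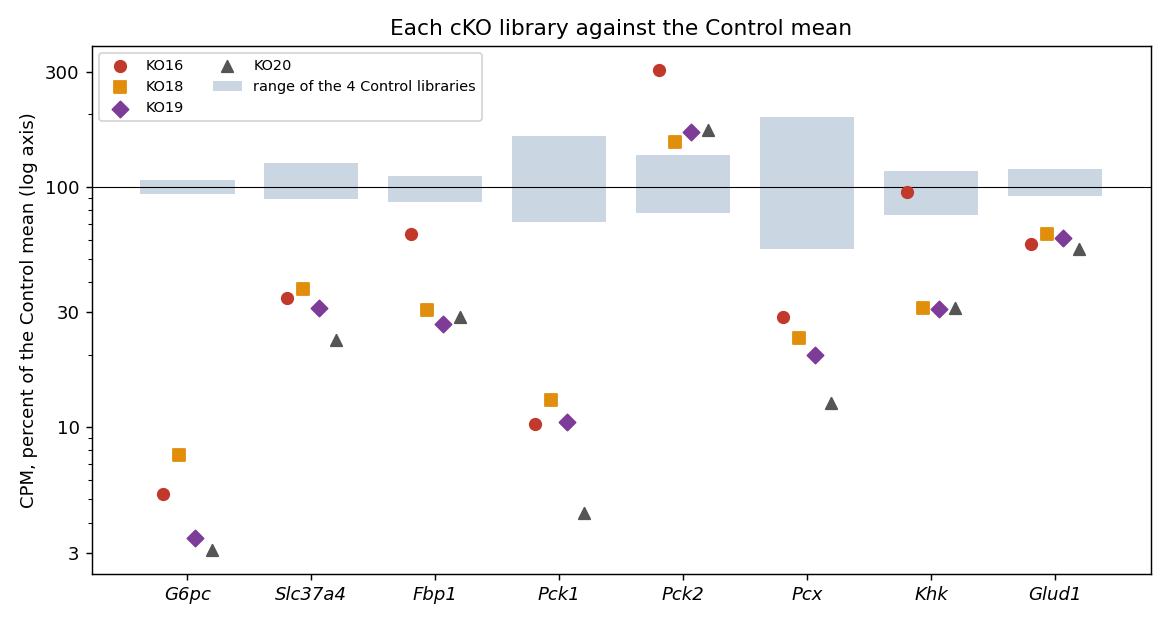
CPM of each cKO library as a percent of the Control mean (log axis), with the range of the 4 Control libraries as a band. G6pc lies at 3.08% to 7.64%, Pck1 at 4.39% to 13%, Glud1 at 55.2% to 63.4% and Pck2 at 153% to 307% of the Control mean, and KO16 (circles) stands high for Fbp1, Khk and Pck2.

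Across cKO mice the genes did not rank the libraries alike. KO20 had the lowest level of G6pc, Slc37a4, Pck1, Pcx and Glud1, and KO18 the highest of G6pc, Slc37a4, Pck1 and Glud1. KO16 was highest for Fbp1, Khk, Pck2 and Pcx. The proximal tubule markers had a median shift from the Control mean (log2) of -1.45 in KO16, -1.20 in KO18, -1.58 in KO19 and -2.31 in KO20. The shifts of G6pc were -4.24, -3.70, -4.85 and -5.01 and those of Pck1 -3.19, -2.86, -3.16 and -4.42 in the same libraries, below the marker median in each. The 8 genes as a set did not lie below it throughout. Their median shift was -1.15, -1.68, -1.78 and -1.95, above the marker median in KO16 and KO20 and below it in KO18 and KO19. Glud1 (-0.79, -0.65, -0.70 and -0.85) lay above it in each. Of the 14 markers, Slc5a12 alone had a shift below that of Pck1 in KO16 (-4.72) and in KO19 (-3.35), and none had one below that of G6pc in KO18, KO19 or KO20. Xpr1 itself had shifts of -4.14, -1.95, -2.22 and -3.09 in KO16, KO18, KO19 and KO20, so the library with the least Xpr1 was not the one with the least G6pc or Pck1.

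Per kilobase of annotated exon, the order of the levels also differed between genotypes. In cKO kidneys Fbp1 averaged 279 ± 130.2 CPM per kb, followed by Khk (182 ± 123), Glud1 (57.8 ± 3.54), Pck1 (38.4 ± 14.6), Slc37a4 (26.1 ± 5.11), Pcx (16.3 ± 5.25), G6pc (10.6 ± 4.54) and Pck2 (2.73 ± 0.971; SD, n = 4 each). In Control kidneys Fbp1 led at 747 ± 79.8 CPM per kb, ahead of Pck1 (402 ± 173), Khk (386 ± 65.1), G6pc (218 ± 14.8), Glud1 (97.3 ± 11.9), Slc37a4 (82.8 ± 14.1), Pcx (76.9 ± 49.5) and Pck2 (1.36 ± 0.352). G6pc therefore stood at rank 7 in cKO and rank 4 in Control kidneys, and Pck1 at rank 4 and rank 2. Neighbours whose libraries overlapped were, in cKO kidneys, Fbp1 and Khk, Pck1 and Slc37a4, Slc37a4 and Pcx, and Pcx and G6pc, and, in Control kidneys, Fbp1 and Pck1, Pck1 and Khk, Glud1 and Slc37a4, and Slc37a4 and Pcx. The level of Pck2 is uncertain on this scale, since its 13 annotated transcripts add up to 7.81 kb of exon.

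**Figure D3:**
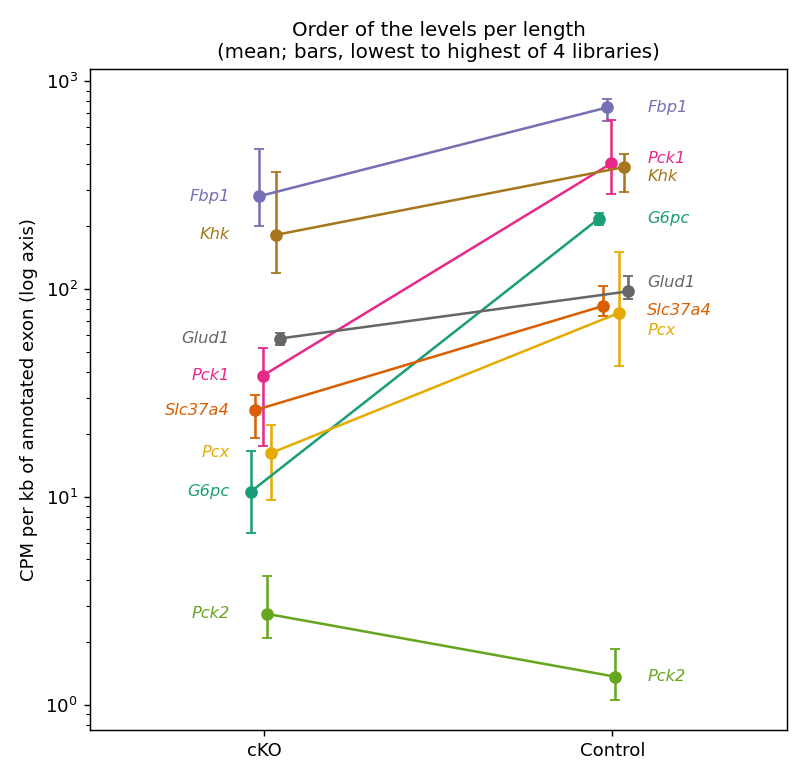
Mean level of each gene in CPM per kb of annotated exon (log axis) in cKO and Control kidneys; bars run from the lowest to the highest of 4 libraries and lines join the same gene. The line of G6pc crosses those of Glud1, Slc37a4 and Pcx, and that of Pck2 alone slopes the other way.

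**Figure D4:**
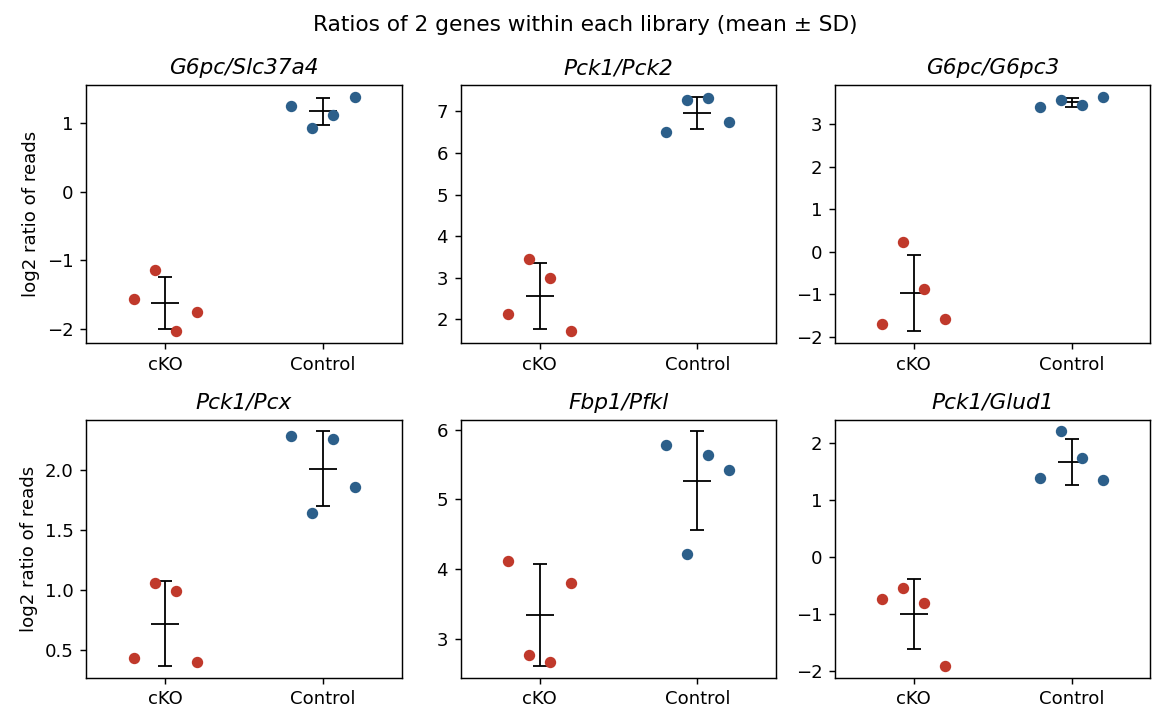
Log2 ratio of the reads of 2 genes within each library, which does not depend on the scaling of libraries; points are mice and bars mean ± SD. The groups do not overlap in any of the 6 panels, and G6pc to G6pc3 differs most (-4.49).

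Another list held the reversible enzymes shared with glycolysis, beside others. Of 18 tested genes on the path from pyruvate, lactate or amino acids to glucose, 1 fell, 1 rose (Fbp2) and 16 did not pass. These counts lie near the shares over all genes tested (6.61% lower and 7.5% higher). The median log2 fold change of the list was 0.04. The gene that fell was Gpt, the alanine aminotransferase of the cytosol (-1.19, adjusted p = 0.0387), a call lost without C11, C13, C14, KO18, KO19 or KO20 (adjusted p 0.0538 to 0.157). Malate dehydrogenase genes Mdh1 and Mdh2 had values of -0.26 and -0.04 (adjusted p = 0.611 and 0.941), and those of aspartate aminotransferase, Got1 and Got2, -0.10 and 0.05 (0.833 and 0.919). Without KO16, KO20 and C11 this list had 9 members lower and 3 higher of 19. In that same fit 4486 of all 15881 genes tested were lower and 4689 higher. Gapdh, Pgk1 and Pgam1 have near-identical copies elsewhere in the genome, and the counting set reads that align to several places aside, so their counts are uncertain.

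Of 19 genes of one-way glycolysis and pyruvate oxidation, 2 rose, 2 fell and 15 did not pass. Over all genes tested 7.5% rose and 6.61% fell. Hk2, hexokinase 2, rose to 1.0 ± 0.0642 CPM in cKO against 0.44 ± 0.191 CPM in Control kidneys (log2 fold change 1.17, adjusted p = 0.0452), and Pkm, pyruvate kinase, to 334 ± 117 CPM against 174 ± 12.4 CPM (0.94, adjusted p = 0.0383). The levels of Hk2 are low and rest on few reads. Pdha1, the catalytic subunit of pyruvate dehydrogenase, fell by 0.79 (adjusted p = 0.0215) and its inhibitor kinase Pdk3 by 0.72 (0.0355). None of these calls is stable: that of Hk2 was lost in 7 of 8 fits without a single library (all but that without C11; adjusted p up to 0.153), that of Pkm without C10, C11, C13, C14 or KO20 (up to 0.126), that of Pdha1 without C10, C13, C14, KO19 or KO20 (up to 0.0853) and that of Pdk3 without C10, C13, C14, KO18, KO19 or KO20 (up to 0.126). Pdha1 and Pdk3 also lost their calls with library totals alone and with upper-quartile scaling.

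Of 23 transcription factors, coactivators and hormone receptors known to act on gluconeogenic genes, 4 fell and 19 did not pass. Their median log2 fold change was -0.58, and of all genes tested 6.61% were lower. Klf15, a factor that induces gluconeogenic and amino acid breaking genes, fell to 28.6, 49.0, 46.8 and 36.9 CPM in KO16, KO18, KO19 and KO20, against 92.1, 114, 113 and 103 CPM in C10, C11, C13 and C14 (log2 fold change -1.39, SE 0.22, adjusted p = 0.00423). Pth1r, the receptor for parathyroid hormone, fell by 1.16 (adjusted p = 0.00492). Ppara, a receptor for fatty acids, fell by 1.97 (adjusted p = 0.019), and Hnf4a, a factor of proximal tubule identity, by 1.55 (0.0363). The call of Hnf4a was lost in 6 of 8 fits that left out a library, all but those without KO18 or KO19 (adjusted p 0.0549 to 0.0927), and with library totals alone (0.126). Ppara kept its call in each of these 8 fits but lost it with library totals alone (0.0595) and without KO16 and KO20 (0.0506), whereas Klf15 and Pth1r kept theirs in all 18 alternatives. Ppargc1a, the coactivator of gluconeogenic genes, had a value of -0.58 (adjusted p = 0.347), Foxo1, the insulin-restrained factor, -0.89 (0.237), Creb1, which binds the cAMP element, -0.21 (0.754) and the glucocorticoid receptor gene Nr3c1 -0.60 (0.294). The insulin receptor gene Insr stood at -0.37 (0.635), with Irs1 at -0.41 (0.664).

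**Figure D5:**
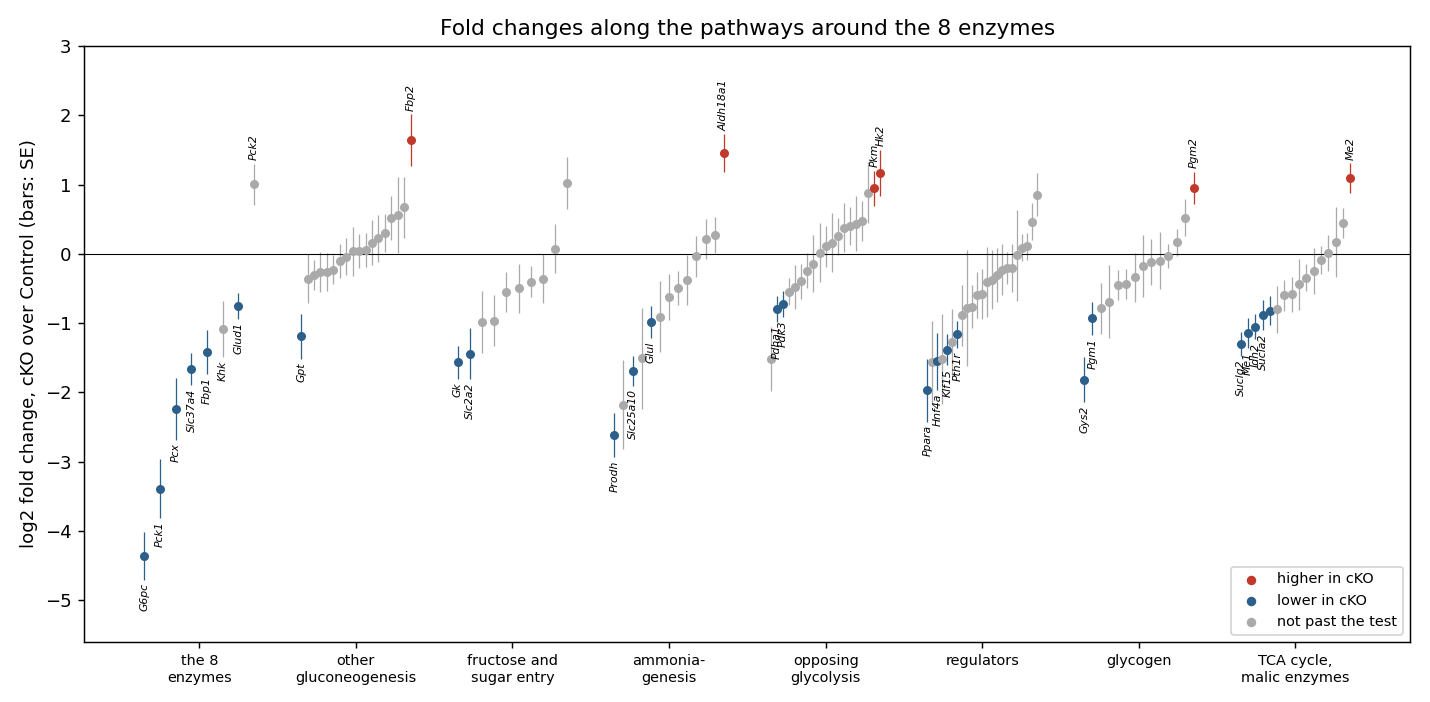
Log2 fold change of cKO over Control with its SE for the 8 genes and 7 lists around them; blue is lower, red higher and grey not past the test. The falls of G6pc (-4.36) and Pck1 (-3.39) lie below every gene of the other lists, of which the lowest is Prodh (-2.62).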

How the data were processed

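The authors deposited raw counts of reads per Ensembl gene, 1 file per library, per the file headers and their whole numbers. The submitters' processing notes name cutadapt 1.3, STAR 2.4.0g, HTSeq 0.6.1 and GRCm38. Annotation release and strand setting: not given in the sources used here. Lines naming no gene (39.7% to 56.2% of a file's total, highest in KO20 and next in KO16 at 52.0%) were left out. KO16 and KO20 also had the fewest reads assigned to genes. GENCODE vM21 gave symbols, coordinates and exonic lengths and matched 46005 of 46517 identifiers, and promoters from RefSeq (all 8 genes matched).

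cKO was compared with Control by edgeR 4.0.16 (R 4.3.3): TMM, filterByExpr (minimum count 10, minimum total count 15), quasi-likelihood F test, Benjamini-Hochberg over 15382 genes, SE from the F statistic. Ratios used unscaled reads (6 of the 8 are reported here) and profiles log2(CPM + 0.1). Alternatives used limma 3.58.1 and DESeq2 1.42.0 among others. No label gives a batch or pairing, so the spread behind each p-value is that between these libraries, 1 per mouse. For the 8 genes, with at least 190 reads in each library, counting error is small beside that spread (common biological coefficient of variation 0.386). It is larger for genes of few reads such as Hk2.

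The members, lists and ratios were chosen with earlier results of these data known. All members were described; from each list the genes past the threshold with the smallest p were named, up to 5, and others (Tkfc, Slc2a5, Slc38a3, Mdh1, Mdh2, Got1, Got2, Ppargc1a, Foxo1, Creb1, Nr3c1, Insr, Irs1 and those of the last observation) after their values were seen.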

Additional observations from a re-analysis of the deposited data

Results flagged for a closer look

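In 4 of 32 groups of 4 libraries (the levels of the 8 genes and the 8 ratios, in each genotype) a single library lay far from the others, where chance alone gives about 1 group in 20. The gap to the nearest library, divided by the range of the group, was 0.996 for Khk, 0.893 for Fbp1 and 0.873 for Pck2 among cKO libraries, each because KO16 was high (659, 806 and 32.6 CPM). It was 0.857 for Pcx among Control libraries, because C11 was high (715 CPM). KO16 has the strongest lean to short transcripts (-0.47 in log2 CPM per doubling of length) and C11 the strongest to long ones (0.28); the exonic lengths of Khk, Fbp1, Pck2 and Pcx are 1.8, 1.7, 7.81 and 4.75 kb. The part of that lean in these levels was not tested.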

How the results depend on the processing

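The 18 alternatives were DESeq2, limma-voom, scaling by RLE factors, by upper-quartile factors or by library totals alone, testing genes without a filter or from a mean of 1 CPM up, the length lean as a covariate, and fits without 1 library, without KO16 and KO20, and without KO16, KO20 and C11. G6pc, Pck1, Slc37a4 and Pcx kept direction and call in all of them. No log2 fold change of the 8 genes changed sign: Fbp1 lay between -1.90 and -1.15, Glud1 between -0.80 and -0.42, Khk between -1.83 and -0.80 and Pck2 between 0.68 and 1.27. The number of the 8 genes lower was 4 to 7. The number higher was 1, Pck2, with upper-quartile factors, library totals alone, DESeq2, the filter at 1 CPM, the length lean as a covariate, and without KO16, KO20 and C11; it was 0 or 1 without a single library. Over all genes 2170 were called, 5111 with the length lean as a covariate, 9175 without KO16, KO20 and C11 (2110 of the 2170 among them), and 1106 to 2697 without a single library; the cause was not tested. The lists moved too, as did the counts over all genes. Of the one-way glycolysis genes 4 of 20 fell with DESeq2, where 1499 of all 26091 genes tested were lower. Without KO16, KO20 and C11, 5 of 19 fell and 9 rose, where 4486 of all 15881 genes were lower and 4689 higher. Of the 16 tricarboxylic acid cycle genes 9 fell without KO16 and KO20, where 1341 of all 15967 genes were lower. Without C11 as well 12 of these 16 fell, beside the 4486 of 15881 over all genes. Without KO16 and KO20 the exact test of a ratio cannot go below 0.0667, and without C11 as well below 0.1; all 8 ratios kept their sign in every fit. No paired analysis was possible because the groups share no animal number.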

Other observations

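Genes of the tricarboxylic acid cycle and the malic enzymes around it fell in part: 5 of 16 were lower, 1 higher and 10 did not pass. For this list and the glycogen list below, the shares over all genes tested were 6.61% lower and 7.5% higher. Suclg2, the GTP-linked subunit of succinyl-CoA synthetase, fell to 145 ± 10.3 CPM in cKO against 357 ± 12.4 CPM in Control kidneys (adjusted p = 0.00187) and Idh2, the mitochondrial NADP-linked isocitrate dehydrogenase, by 1.05 (adjusted p = 0.0062). The malic enzymes moved apart, with Me1 of the cytosol lower (283 ± 32.7 CPM in cKO and 627 ± 108 CPM in Control kidneys, adjusted p = 0.00802; 0.0506 without KO20) and Me2 of mitochondria higher (14.5 ± 1.69 and 6.82 ± 1.16 CPM, adjusted p = 0.00992; SD, n = 4 each). Sucla2 (-0.88, adjusted p = 0.0265) lost its call without C10, C13, C14, KO19 or KO20. In a list of 14 glycogen genes 2 fell, 1 rose and 11 did not pass. Gys2, the liver-type glycogen synthase, fell by 1.82 (SE 0.32, adjusted p = 0.00636), whereas Pgm1 (-0.93) and Pgm2 (0.95), both phosphoglucomutase genes, lost their calls without C13, C14 or KO20 and, for each, other libraries.

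Among 12881 tested genes with a mean of at least 1 CPM and a gene symbol that is no clone or pseudogene name, the profiles over the 8 libraries closest to that of G6pc were those of Dnase1, Slc39a5, a zinc carrier gene, and Fam151a (root mean square difference in log2 CPM 0.291, 0.322 and 0.323). Those closest to Pck1 were Gldc, glycine decarboxylase, Cyp4b1 and Slc13a4 (0.319, 0.432 and 0.444). Slc7a7, Slc25a10 and Lpar3 lay closest to Slc37a4 (0.0941, 0.109 and 0.112), Cryl1, Susd3 and Mettl1 to Fbp1 (0.124, 0.136 and 0.14), Cyp2a5, Slc13a2 and Tmprss9 to Pcx (0.184, 0.22 and 0.29), and Slc17a5, Dcaf8 and Dlst to Glud1 (0.075, 0.0817 and 0.0839). These are descriptions of 8 libraries.

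Without KO16, of the genes on these lists, Khk (described above), Sord, which makes fructose from sorbitol (adjusted p = 0.00247), Ldhb (0.0404), Slc25a11 (0.0237), Idh3b (0.00925), Idh3g (0.00675) and also Fh1 (0.0101) passed as lower and Cebpb (0.046) as higher, which they did not with all libraries.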
